A study of Mus musculus with 22 samples.

Results

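The genes described here are 46 neighbours on mouse chromosome 2 that stood higher in tumour cells of a Pitx1 knockout line. They were picked by name, from a list of 48 genes in a 21-Mb interval of that chromosome which starts at 84 Mb (GRCm38), as a block raised in the Pitx1 knockout columns of the deposited table. Of the 48, 46 had a mean of 100 or more over the 22 libraries, and these run from Med19 at 84.7 Mb to Tcp11l1 at 104.7 Mb. Lrp4 (mean 25.1) and Mdk (mean 6.68) did not reach it, while the kept genes nearest to the limit were Harbi1 (162), Pex16 (167) and Ptprj (201). The whole table held 49671 genes, of which 11154 had such a mean, 899 of them on chromosome 2. Because the Pitx1 knockout values chose the genes, their levels in that knockout against the control are given as a description, without a test.

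Pitx1 is a homeodomain transcription factor of the paired family, known for its part in forming the hind limb and the pituitary. Homeodomain proteins of its bicoid-like type bind a short core motif in DNA. The 46 genes are not 1 pathway. They are neighbours of mixed function, many of them housekeeping genes for RNA processing, mitochondria, protein breakdown and vesicle traffic, and neighbours on a chromosome can share chromatin and regulatory elements.

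The libraries came from primary mouse tumour cell lines, a control line and CRISPR/Cas9 knockout lines of Pitx1, Klf5, Nfatc1 or Creb3l1. All of them carried the tumour's alleles, among them Lgr5CreER, p53 fl/fl and Rosa26-YFP +/+, so that the control cells too came from a tumour with Cre made under Lgr5. Cells positive for mCherry and YFP were sorted into an EPCAM+ and an EPCAM- fraction, EPCAM being an epithelial adhesion protein that is lost from the surface in epithelial-mesenchymal transition. Both fractions were profiled in all 5 lines at day 8, and EPCAM+ control cells also at day 0, with 2 libraries in each of the 11 groups. Separate cultures are not stated for the 2 libraries of 1 group, nor whether a line was 1 clone, so p-values here cover only how far these samples spread.

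The values are deposited counts scaled to a common total (20007331 to 20014236 per library), with 1 read worth 2.02 to 3.30 units and 6054929 to 9882696 reads in genes. Pitx1 itself lies on another chromosome (chr13:55825051-55836192). It stood at 1473 and 1627 in EPCAM+ and 1205 and 1585 in EPCAM- Pitx1 knockout cells, against 3956 to 6438 (median 5045) in the other 18 libraries. Summed epithelial markers were 44253 to 68185 in control EPCAM+ and 18288 to 25302 in control EPCAM- cells at day 8, and 47674 to 49536 and 18745 to 24874 in the Pitx1 knockout. Single markers of these 11 went both ways, with log2 fold changes of -4.75 to 0.98 in EPCAM+ cells, 3 above 0. In EPCAM- cells they ran from -5.58 to 2.16, with 8 above 0. The 10 mesenchymal markers summed to 25077 to 92268 in EPCAM+ and 121090 to 180097 in EPCAM- controls at day 8. In the Pitx1 knockout their sums were 61806 to 102310 and 133854 to 161968. The 9 fibroblast markers summed to 716 and 888 in EPCAM+ and 3057 and 5010 in EPCAM- Pitx1 knockout cells, above the 297 to 399 and 841 to 1807 of the day 8 controls. Col1a1 made up most of the EPCAM- sums (3666 and 2424), while Dcn, Lum and Dpt were at 0 in all 4 Pitx1 knockout libraries and at 61, 6 and 6 in EPCAM+ and 35, 3 and 3 in EPCAM- control sample 1. The part of these markers in the chromosome 2 values was not tested. The 10 immune markers summed to at most 277, with Cd3e, Cd3g, Tyrobp and Ncr1 at 0 in every library, and the 7 endothelial markers to at most 431, a value of an EPCAM- Pitx1 knockout library in which Kdr read 269, against 96 to 204 in the EPCAM- controls. In bulk RNA such as this, fewer cells of a type and less RNA per cell cannot be told apart.

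Promoters of the 46 genes were searched for the bicoid-type core TAATCC on both strands (GGATTA on the other), in RefSeq windows of GRCm38.p6 that run from 250 bases before to 50 after a start site. The windows matched 41 of the genes. The core was in 2 of their 52 promoters (3.85%), against 2320 of 32851 promoters of all genes (7.06%). The 2 promoters that hold it are shown first, with the core in capitals, because Pitx1 binds motifs of this type. They are those of Ambra1 (chr2:91729888-91730187, plus strand, core 222 bases before the start) and Cstf3 (chr2:104590234-104590533, plus strand, core 79 bases before the start). The pair after them, Zfp408 (chr2:91649742-91650041, minus strand) and Arhgap1 (chr2:91649868-91650167, plus strand), is shown because these are the kept genes with the closest opposed start sites, 69 bases apart in the GENCODE annotation. Capitals there mark the 174 bases that both windows cover, each read on its own strand, and neither window holds the core. The Arhgap1 window begins past the GENCODE start of that gene (91649860), so the sequences do not show the spacing of 69 bases. A further RefSeq window of Arhgap1 (chr2:91652958-91653257) is not printed.
Ambra1: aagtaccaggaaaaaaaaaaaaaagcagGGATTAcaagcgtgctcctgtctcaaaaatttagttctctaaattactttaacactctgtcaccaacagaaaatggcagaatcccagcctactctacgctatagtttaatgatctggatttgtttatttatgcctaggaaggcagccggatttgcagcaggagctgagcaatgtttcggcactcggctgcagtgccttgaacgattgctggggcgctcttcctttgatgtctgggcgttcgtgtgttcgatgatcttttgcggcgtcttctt
Cstf3: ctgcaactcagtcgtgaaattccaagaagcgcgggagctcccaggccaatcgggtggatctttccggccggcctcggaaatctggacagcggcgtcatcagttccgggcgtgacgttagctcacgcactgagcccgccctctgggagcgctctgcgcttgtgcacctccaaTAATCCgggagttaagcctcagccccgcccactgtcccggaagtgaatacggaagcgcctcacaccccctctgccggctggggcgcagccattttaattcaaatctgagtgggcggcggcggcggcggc
Zfp408: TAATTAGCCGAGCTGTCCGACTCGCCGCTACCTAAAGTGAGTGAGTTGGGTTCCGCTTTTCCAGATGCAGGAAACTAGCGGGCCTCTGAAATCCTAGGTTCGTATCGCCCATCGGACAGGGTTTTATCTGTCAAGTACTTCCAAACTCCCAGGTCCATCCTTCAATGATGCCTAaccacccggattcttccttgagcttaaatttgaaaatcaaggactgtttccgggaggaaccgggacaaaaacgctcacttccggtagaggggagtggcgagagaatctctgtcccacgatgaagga
Arhgap1: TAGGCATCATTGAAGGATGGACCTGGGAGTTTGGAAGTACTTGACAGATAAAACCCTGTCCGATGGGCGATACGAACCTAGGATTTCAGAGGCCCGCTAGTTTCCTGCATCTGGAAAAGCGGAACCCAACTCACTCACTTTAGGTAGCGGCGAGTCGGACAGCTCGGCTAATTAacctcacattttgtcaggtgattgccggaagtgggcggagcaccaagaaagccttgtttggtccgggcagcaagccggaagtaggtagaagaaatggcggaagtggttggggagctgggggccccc
A match is a description of letters only. The ratio of group means, Pitx1 knockout over control, was 1.47 in EPCAM+ and 1.60 in EPCAM- cells for Ambra1, and 1.14 and 1.21 for Cstf3. A relation between the core and these ratios was not tested.

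In the Pitx1 knockout every one of the 46 genes had a higher mean than in the control line, in both fractions. The median ratio of means was 1.64 in EPCAM+ cells, from 1.09 for Ssrp1 to 2.73 for Mapk8ip1, and 1.82 in EPCAM- cells, from 1.21 for Cstf3 to 3.96 for Harbi1. On the log2 scale the medians were 0.71 (quartiles 0.42 and 0.97) and 0.84 (0.58 and 1.09), while the 11154 genes with a mean of 100 or more had medians of 0.01 and 0.02. In EPCAM+ cells 19 genes had a ratio below 1.5, 16 a ratio between 1.5 and 2, 10 a ratio between 2 and 2.5, and 1 a higher one. In EPCAM- cells these numbers were 14, 16, 10 and 6. Most of the genes were thus higher by less than 2 times.

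Across the 46 genes the log2 fold change in EPCAM+ cells and that in EPCAM- cells had a Pearson r of 0.85 and a Spearman rank correlation of 0.88 (n = 46). This is a description only: both fractions' values chose the genes, and same-numbered fractions of 1 line also deviated together across genes, with correlations of 0.637 to 0.820. Both Pitx1 knockout libraries lay above both controls for 42 genes in EPCAM+ cells (21.8% of genes with a mean of 100 or more did so) and for 43 in EPCAM- cells (21.9%). Ptprj, Dgkz and Traf6 overlapped in both fractions, and Cstf3 in EPCAM+ cells. For 28 of the 46 genes all 4 Pitx1 knockout libraries were above all 18 other libraries, which held for 1.64% of genes. As this comparison chose the genes, nothing is read from these counts, and no test of it is given.

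The labels tag the sample number as a batch, and the same direction was seen within each. Pitx1 knockout libraries of both numbers chose the genes, so this is a description and not a replication. In sample 1 the median log2 difference from the control of the same number was 0.64 in EPCAM+ and 0.93 in EPCAM- cells. In sample 2 it was 0.86 and 0.73. For 44 of the 46 genes the Pitx1 knockout library was above the control of its own number in all 4 such comparisons (20.6% of genes with a mean of 100 or more), Dgkz and Cstf3 being the exceptions. Measured from the mean of the 18 libraries without a Pitx1 knockout, the median of the 46 genes was 0.57 and 0.75 in the EPCAM+ and 0.80 and 0.76 in the EPCAM- knockout libraries (log2). The 18 others had medians of -0.15 to 0.12, all below those of the 4 knockout libraries.

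**Figure D1:**
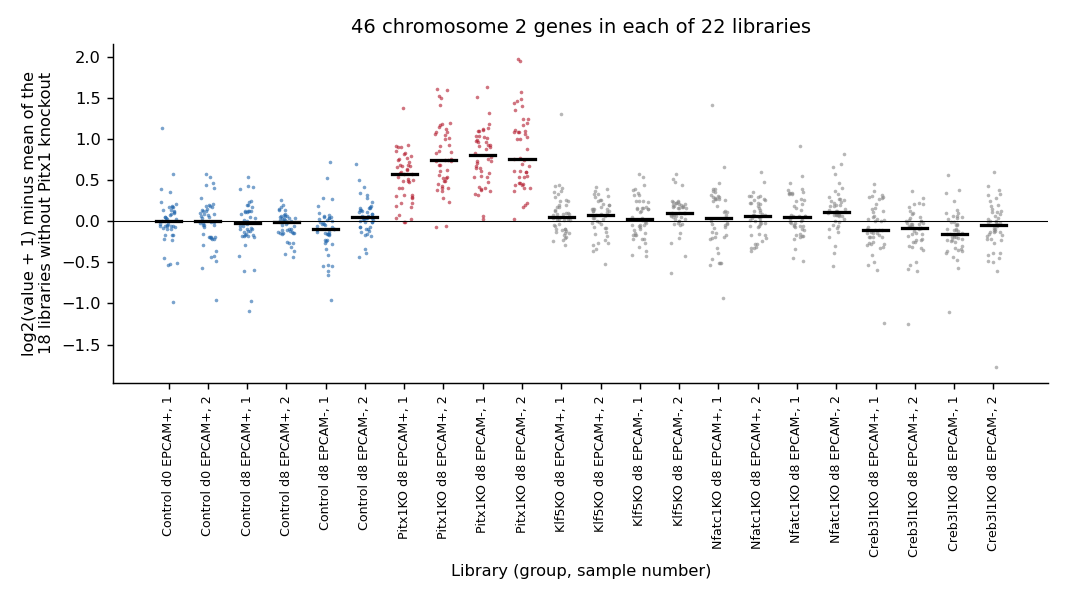
Each point is 1 of the 46 genes in 1 library, as log2(value + 1) minus that gene's mean over the 18 libraries without a Pitx1 knockout; the bar is the library's median. Medians of the 4 Pitx1 knockout libraries (red) lie at 0.57 to 0.80, those of controls (blue) and other knockouts (grey) at -0.15 to 0.12.

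The RNA and transcription genes, 11 in number, had median ratios of 1.38 in EPCAM+ and 1.49 in EPCAM- cells. Nup160 (chr2:90677215-90736328), a scaffold protein of the nuclear pore, read 4501 and 5811 in EPCAM+ and 5927 and 5905 in EPCAM- knockout cells. Its day 8 controls were 2851 and 3479, and 2602 and 3525, and the 18 other libraries ran from 2046 to 3632 with a median of 2986. No library without the Pitx1 knockout reached the lowest knockout value. Caprin1, an RNA-binding protein of stress granules, gave 22774 and 26206 against 17107 and 18380 in EPCAM+ cells, and 28542 and 26821 against 16674 and 20377 in EPCAM- cells. Zfp408, a zinc finger protein, was at 691 and 837 against 387 and 355, and at 861 and 930 against 311 and 367. The 4 knockout libraries of both genes were above the other 18.

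The other RNA genes of the group varied in how far they stood from the control. Ssrp1, a subunit of the FACT histone chaperone, had 6244 and 6291 against 5576 and 5918 in EPCAM+ cells (ratio 1.09) and 7444 and 7437 against 4979 and 5927 in EPCAM- cells (1.36). Cstf3, a subunit of the cleavage factor that trims the 3′ end of mRNAs, had 1116 and 1489 against 1185 and 1094, so that its EPCAM+ groups overlapped. Nat10, which acetylates cytidines in RNA, had ratios of 1.17 and 1.30. Celf1, a splicing and mRNA decay regulator, had 1.43 and 1.75. Cry2, a repressor of the circadian clock, had 1.96 and 1.89, from 322 and 324 against 175 and 155 in EPCAM+ cells and 528 and 385 against 206 and 276 in EPCAM- cells. Phf21a, a reader subunit of a histone demethylase corepressor, had 2.08 and 1.67. Clp1, an RNA kinase of 3′ end processing, had 1.27 and 1.25, and Med19, a subunit of the Mediator coactivator, 1.21 and 1.49.

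The mitochondrial and metabolic genes, 11 in number, had median ratios of 1.64 and 1.83. Mtch2 (chr2:90847155-90866810), which inserts proteins into the outer mitochondrial membrane, read 5661 and 6092 in EPCAM+ and 6100 and 6479 in EPCAM- knockout cells, while its controls were 3214 and 2818, and 2719 and 3204, and all 18 others lay between 2719 and 3613 (median 3032). Ratios of means were 1.95 and 2.12. Ndufs3, a core subunit of respiratory complex I, read 1506 and 2035 in EPCAM+ and 1831 and 2432 in EPCAM- knockout cells, against 753 to 1127 (median 887) in the others. Cat, the peroxisomal catalase that breaks down hydrogen peroxide, read 1824 and 2187, and 2251 and 2897, against 575 to 1744 (median 1279). For each of these 3 genes the knockout libraries did not overlap with the rest.

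Slc39a13, a zinc transporter, had ratios of 2.34 and 1.83. Acp2, a lysosomal acid phosphatase, had 2.22 and 2.24. The methionine salvage enzyme Apip had 1.64 and 1.98, and its head-to-head neighbour Pdhx, a structural part of the pyruvate dehydrogenase complex, 1.39 and 1.65. Hsd17b12, a reductase of fatty acid elongation, had 1.34 and 1.47. Pex16, a factor for peroxisome membranes, had 1.52 and 1.41, and the Golgi fucose transporter Slc35c1 had 1.28 and 1.45. Ext2, which polymerises heparan sulfate, stood lowest here at 1.16 and 1.27, from 1943 and 1822 against 1804 and 1451 in EPCAM+ cells.

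The 5 genes of protein turnover and autophagy had median ratios of 1.77 and 1.94. Psmc3 (chr2:91054009-91066369), an ATPase at the base of the 26S proteasome, read 4861 and 5989 in EPCAM+ and 5203 and 5936 in EPCAM- knockout cells, against 2031 to 3304 (median 2852) in the other 18. Atg13, a subunit of the ULK1 complex that starts autophagy, read 982 and 1346, and 1284 and 1676, against 392 to 802 (median 609), with ratios of 2.49 and 2.57. Fbxo3, an F-box adaptor of a ubiquitin ligase, read 1654 and 1758, and 1821 and 1834, against 855 to 1283 (median 1149). In all 3 genes the groups were apart. Ambra1, an autophagy regulator, had ratios of 1.47 and 1.60, and Kbtbd4, an adaptor of a cullin ubiquitin ligase, 1.77 and 1.94.

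The 7 genes of cytoskeleton and traffic had median ratios of 1.93 and 2.08. Ckap5 (chr2:91526762-91620664), a microtubule polymerase, read 12657 and 16725 in EPCAM+ and 16553 and 14654 in EPCAM- knockout cells, against 5332 to 11057 (median 7293) in the others. Arfgap2, which switches off Arf1 in Golgi traffic, read 2469 and 3022, and 2914 and 3107, against 1221 to 1800 (median 1474). Pacsin3, a membrane-bending protein, read 786 and 1505, and 761 and 1375, against 257 to 659 (median 514). The Pacsin3 ratios of 2.48 and 3.02 come from knockout libraries that lie far apart, with sample 2 the higher in both fractions, though none overlapped with the rest. Fnbp4, a formin-binding protein, had ratios of 1.93 and 2.06. Commd9, a subunit of the Commander complex of endosomal recycling, had 1.64 and 2.18. Tnks1bp1, a tankyrase-binding protein, had 1.26 and 1.61, and Ttc17, a tetratricopeptide repeat protein, 1.39 and 1.60.

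The 8 signalling genes had ratios from 1.12 for Dgkz to 2.73 for Mapk8ip1 in EPCAM+ cells, and from 1.21 for Traf6 to 2.63 for Mapk8ip1 in EPCAM- cells. Mapk8ip1, a scaffold of JNK signalling, had 378 and 753 against 136 and 279 in EPCAM+ cells and 545 and 1027 against 220 and 377 in EPCAM- cells. Its ratios were 2.73 and 2.63, but the lowest knockout library was below the highest of the 18 others (433). Arhgap1, a GTPase-activating protein, had 3249 and 3971 against 1937 and 1966, and 4123 and 4494 against 2118 and 2169. Hipk3, a kinase, had 6140 and 6399 against 3401 and 3855, and 7110 and 5546 against 3189 and 3800. Both genes stood above all 18 others in every knockout library. Dgkz, a diacylglycerol kinase, had 1229 and 1735 against 1345 and 1292, and 1252 and 1858 against 844 and 1275. Traf6, a ubiquitin ligase of NF-kappaB signalling, had ratios of 1.16 and 1.21, and the apoptosis inhibitor Api5 1.18 and 1.31. For Madd, an exchange factor of Rab3, they were 1.43 and 1.30. Ptprj, a receptor tyrosine phosphatase, had 283 and 207 against 228 and 141, and 389 and 180 against 257 and 115, so that its groups overlapped while each knockout library was above the control of its own number.

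The DNA repair genes were Ddb2, which recognises ultraviolet damage, and Alkbh3, a demethylase of alkylated nucleic acids. Ddb2 had 453 and 687 against 282 and 250 in EPCAM+ cells and 404 and 710 against 152 and 244 in EPCAM- cells. Alkbh3 had ratios of 1.60 and 1.84. Harbi1, a protein derived from a transposase, had 209 and 375 against 115 and 136, and 267 and 481 against 92 and 97. Tcp11l1, of the TCP11 family, showed how sample number and knockout combine: sample 1 gave 4507 in EPCAM+ knockout cells against 2277 in its control, and sample 2 gave 2447 against 1281. Its groups overlapped with the 18 others, which reached 2738.

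**Figure D2:**
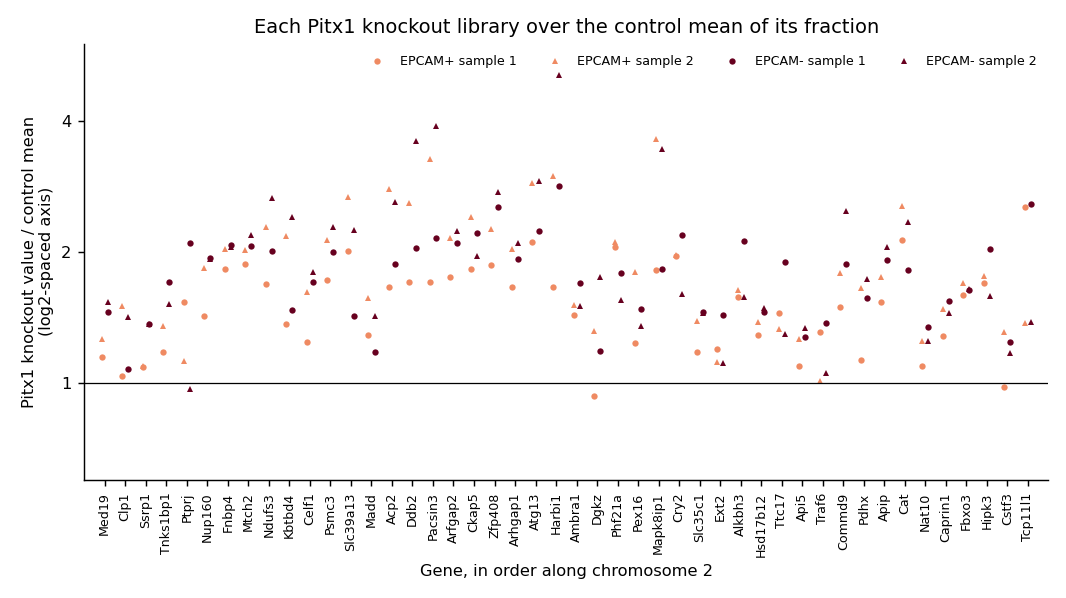
The 46 genes are placed in their order along the chromosome, and each point is 1 Pitx1 knockout library divided by the control mean of the same fraction, on a log2-spaced axis (circles, sample 1; triangles, sample 2). Genes from Nup160 to Harbi1 sit mostly near 2 or above. Ssrp1 and Nat10 sit nearer to 1. For Tcp11l1, the last gene, the EPCAM+ point of sample 1 lies well above that of sample 2, with a ratio of means of 1.95.

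The size of the difference varied along the chromosome. The boundaries that follow were chosen after the values were seen, over protein-coding genes with a mean of 100 or more. From Nup160 (90.7 Mb) to Cry2 (92.4 Mb), a stretch of 25 genes with 24 of the 46 in it, the median log2 fold change was 0.97 in EPCAM+ and 1.04 in EPCAM- cells, and all 25 were above 0. It was 0.38 and 0.59 over the 12 genes before it, from Ctnnd1 to Ptprj, and 0.45 and 0.62 over the 10 genes after it, from Slc35c1 to Api5. Across a gap without such genes followed 21 genes, from B230118H07Rik to Eif3m, with 0.52 and 0.71. The raised stretch ran on below the range that defines the genes: the 67 genes from March7 (60.2 Mb) to Fam171b (83.8 Mb) had medians of 0.34 and 0.53, and 59 of them were above 0 in each fraction. Past the interval the medians were 0.12 and 0.26 over 9 genes, from Rcn1 to Ccdc34, and -0.01 and 0.06 over the 91 genes from Lpcat4 to Sqrdl. Over all of chromosome 2 outside the interval, 829 genes, the medians were -0.05 and 0.07.

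**Figure D3:**
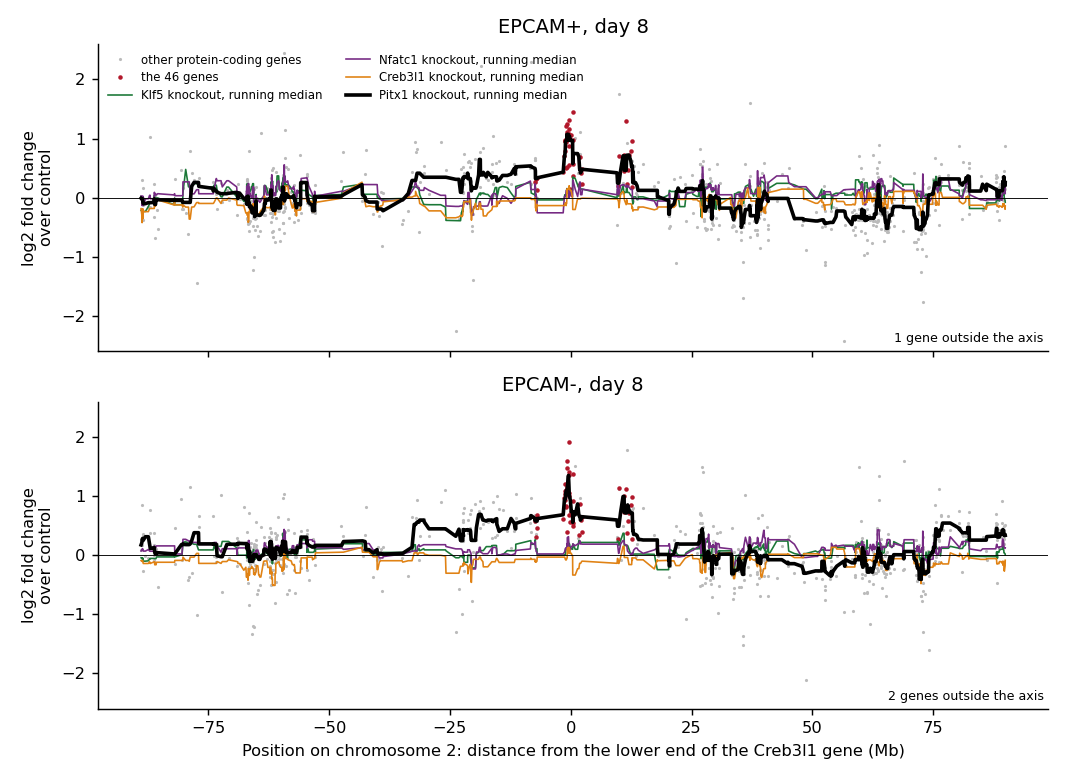
Each dot is a protein-coding gene of chromosome 2 with a mean of 100 or more, placed by its distance from the lower end of the Creb3l1 gene, with its log2 fold change in the Pitx1 knockout (red, the 46 genes). The running median over 9 genes (black) is raised over a broad stretch on both sides of Creb3l1 and peaks beside it, where the lines of the 3 other knockouts stay near 0.

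Set against the genome in 5-Mb bins with at least 5 genes, 451 in all, the bin at 90 to 95 Mb of chromosome 2 had the highest median in both fractions, 0.91 and 0.95, where the bins had standard deviations of 0.20 and 0.22. The next was a bin of chromosome 12 in EPCAM+ cells (0.64) and the chromosome 2 bin that starts at 100 Mb in EPCAM- cells (0.71). The lowest bins lay on chromosome 13, at -0.58 in EPCAM+ and -0.67 in EPCAM- cells. In the other knockouts the bin at 90 to 95 Mb ranked between 59 and 229 of the 451.

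**Figure D4:**
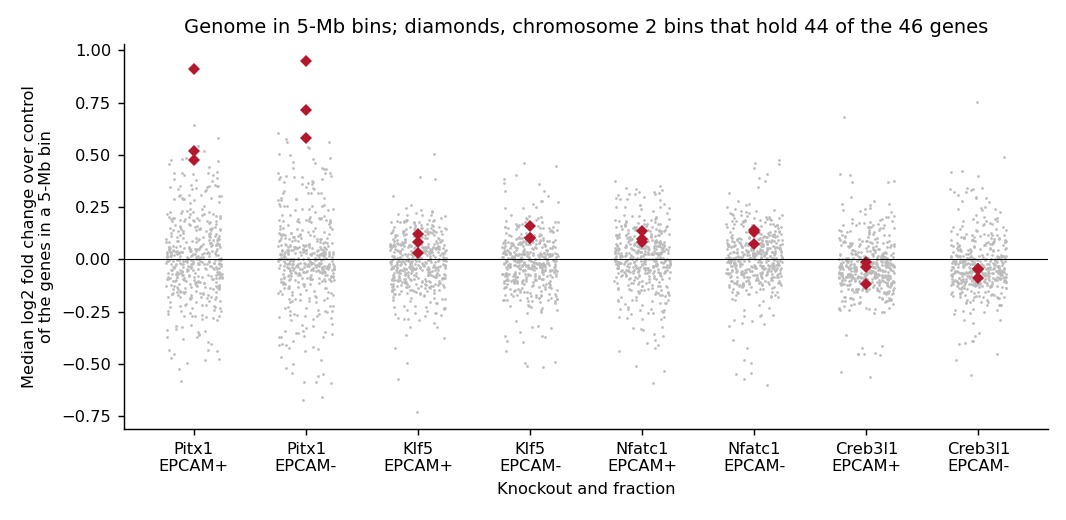
Each dot is the median log2 fold change over control of the genes in 1 of 451 5-Mb bins, for each knockout and fraction; diamonds are the 3 chromosome 2 bins with most of the 46 genes. In the Pitx1 columns the uppermost diamond, at 0.91 and 0.95, is the highest bin, and in the other columns the diamonds lie within the bulk of the bins.

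The interval holds many genes that were hardly read. Of its 592 annotated genes, 368 were at 0 in every library, and 287 carry olfactory receptor symbols, of which 0 had a mean of 100 or more. Besides the 46, 24 genes of the interval had such a mean. Their median log2 fold change was 0.62 in EPCAM+ cells, where 21 were above 0, and 0.67 in EPCAM- cells, where 22 were. In EPCAM+ cells Ldlrad3 (1.76), 2810002D19Rik (1.16) and Gm27027 (1.10) were highest and Gm13736 (-0.50), B230118H07Rik (-0.46) and P2rx3 (-0.01) lowest. In EPCAM- cells Abtb2 (1.78), Syt13 (1.52) and Ldlrad3 (1.13) were highest and Gm13736 (-0.31), Trim44 (-0.08) and Cd82 (0.30) lowest. Not all of these genes are separate. Gm28635 overlaps Ctnnd1 on the same strand, Gm27027 overlaps Alkbh3, and 2810002D19Rik overlaps Ttc17 and Api5, so the same reads may stand behind more than 1 gene. The nearest genes with such a mean before the interval had log2 values of -0.52 (Gm4735), 0.49 (Zc3h15), 0.23 (Itgav), -0.01 (Gm13684) and 2.29 (Fam171b) in EPCAM+ cells, and -0.20, 0.54, 0.40, 1.33 and 0.97 in EPCAM- cells. Those after it had 0.08 (Rcn1), 0.04 (Elp4), 0.44 (Immp1l), -0.16 (Dnajc24) and 0.56 (Arl14ep), and -0.02, 0.19, 0.29, 0.26 and 0.79. The flanking genes thus varied, with Rcn1 and Elp4 close to the control and Arl14ep further above it.

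Whether the same genes moved in the other knockouts was tested as well. The genes were picked as a block raised in the Pitx1 knockout columns of a table that also holds these knockouts. Genes raised in the other knockouts too would have stood out less as such a block. Low counts here may therefore come partly from the choice of genes, and no lack of change is read from them. All knockouts are set against the same control libraries, so the comparisons are not independent of one another or of the Pitx1 comparison. In limma, 0 of the 46 genes passed in the Klf5 knockout (background 0.0511% of genes in EPCAM+ and 0.153% in EPCAM- cells), 0 in the Nfatc1 knockout (0% in both) and 0 in the Creb3l1 knockout (0.194% and 0.261%). With so few genes called at all, 0 of 46 is near the background. At an unadjusted p below 0.05 there were 1 and 0 genes for Klf5, 1 and 1 for Nfatc1, and 2 and 1 for Creb3l1, in EPCAM+ and EPCAM- cells, where 3.75% to 7.50% of all tested genes had one, and voom on recovered reads also passed 0 of the 46 in each of the 6 comparisons. The median log2 fold changes were 0.08 and 0.11 for Klf5, 0.06 and 0.11 for Nfatc1, and -0.05 and -0.05 for Creb3l1, with a median standard error of 0.24 for a single gene. The rest of chromosome 2 had medians of 0.07 and 0.07, 0.11 and 0.12, and -0.10 and -0.12 in the same comparisons.

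Single genes with low unadjusted p were Cat in Klf5 knockout EPCAM+ cells (log2 0.73, standard error 0.32), Slc39a13 and Commd9 in the Nfatc1 knockout (0.55 in EPCAM+ and 0.65 in EPCAM- cells), and Cry2 and Slc35c1 in Creb3l1 knockout EPCAM+ cells (-0.85 and -0.57). None passed adjustment over all genes. Ptprj read 72 and 45 in Creb3l1 knockout EPCAM- cells against 257 and 115 in the control (log2 -1.58, standard error 0.66, adjusted p 0.740 in limma). With the sample number as a block it passed (adjusted p 0.00922 in limma), as 1 of 46 genes where 0.434% of all genes were called.

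The Creb3l1 knockout bears on the same stretch of DNA, because Creb3l1 (chr2:91982328-92024502) lies between Dgkz and Phf21a. Creb3l1, a membrane-bound transcription factor, read 0 to 12 in EPCAM+ control cells, with both day 8 libraries at 0, and 137 and 26 in EPCAM- control cells. It passed as higher in the EPCAM- control cells (adjusted p 0.0228 in limma). In its own knockout it read 3 and 0 in EPCAM+ and 6 and 0 in EPCAM- cells, and did not pass against the control in EPCAM- cells (adjusted p 0.213 in limma). Creb3l1 was also low in EPCAM- cells of the Pitx1 (8 and 3), Klf5 (8 and 5) and Nfatc1 (0 and 0) knockouts. The low level was thus not particular to its own knockout. Unlike the 46 genes, Creb3l1 was lower in EPCAM- Pitx1 knockout cells than in the control (log2 -3.35), without passing (adjusted p 0.258 in limma). In EPCAM+ Creb3l1 knockout cells its neighbour Dgkz read 1143 and 1496 against 1345 and 1292 in the day 8 control, and its neighbour Phf21a 1310 and 850 against 671 and 818. In EPCAM- cells Dgkz read 1056 and 1063 against 844 and 1275, and Phf21a 1505 and 1164 against 1041 and 1193. Neither gene passed in either fraction. Trim44 (chr2:102300119-102407828), a gene of the interval outside the 46, read 3, 0, 0 and 0 in the Creb3l1 knockout against 726 to 991 in the day 8 controls, and fell (adjusted p 1.88e-06 and 3.08e-07 in limma). It varied in other lines too, at 371 and 110 in EPCAM+ and 1047 and 504 in EPCAM- Nfatc1 knockout cells. In the Klf5 knockout it read 493 and 350, and 636 and 525. It did not pass in those 2 knockouts. Commd9 and Pdhx, the kept genes nearest to Trim44 on either side, did not pass in the Creb3l1 knockout.

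The fractions were then compared within each line. In the Pitx1 knockout the values of both fractions chose the genes, so nothing is read from its count. In limma 0 of the 46 genes passed between EPCAM- and EPCAM+ cells in any of the 5 lines, where 0.644% of all genes did in the control, 0.317% in the Pitx1, 0.286% in the Klf5, 0.429% in the Nfatc1 and 0.291% in the Creb3l1 knockout. Voom passed 0 in all 5 as well, and at an unadjusted p below 0.05 there was 1 gene in each line but the Pitx1 knockout, which had 0, where 3.83% to 9.20% of all tested genes had one. In the control the median log2 difference was 0.01, with Phf21a highest (0.59) and Ddb2 lowest (-0.46). In the Pitx1 knockout it was 0.17, with 39 of 46 genes above 0, while the rest of chromosome 2 had 0.14. The other knockouts had medians of 0.00 (Klf5), 0.07 (Nfatc1) and -0.02 (Creb3l1).

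Cry2 had an unadjusted p below 0.05 between fractions in 3 of the lines, the Nfatc1, Creb3l1 and Klf5 knockouts. In the Nfatc1 knockout it read 236 and 301 in EPCAM- against 120 and 136 in EPCAM+ cells (log2 1.06, standard error 0.27, adjusted p 0.125 in limma). With the sample number as a block it passed there (adjusted p 0.0483 in limma), as 1 of 46 genes where 0.956% of all genes were called. In the Creb3l1 knockout it read 144 and 193 against 72 and 114 (log2 0.87), in the Klf5 knockout 213 and 254 against 149 and 162 (0.58), and in the control 206 and 276 against 175 and 155. The EPCAM- libraries were above the EPCAM+ libraries in all 4 of these lines, and in the Pitx1 knockout too, at 528 and 385 against 322 and 324.

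Whether the Pitx1 knockout difference itself differed between fractions was tested as an interaction. Pitx1 knockout values of both fractions chose the genes, which may favour genes raised alike in both. Nothing is therefore read from the counts of this test. Of the 46 genes 0 passed in limma (0% of all genes), 0 had an unadjusted p below 0.05 (1.87% of all tested genes), and voom passed 0. The median difference, EPCAM- minus EPCAM+, was 0.14 on the log2 scale with 36 genes above 0, from Slc39a13 (-0.38) to Harbi1 (0.76), and the median standard error was 0.34. The rest of chromosome 2 had a median of 0.13. In EPCAM+ control cells, day 8 against day 0 also gave 0 of 46 genes in limma (0% of all genes), 0 at an unadjusted p below 0.05 (4.25% of all tested genes) and 0 in voom. There the median was -0.04, from Tcp11l1 (-0.60) to Acp2 (0.31).

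Many of the 46 genes make subunits of complexes whose other genes lie elsewhere in the genome. From 12 lists of such partners, 182 genes outside the interval were tested in the Pitx1 knockout, and 0 passed in limma in either fraction (0.409% of all genes called in EPCAM+ and 0.915% in EPCAM- cells). At an unadjusted p below 0.05 there were 19 and 25 of the 182, where 10.3% and 10.5% of all tested genes had one, and voom passed 0. Their median log2 fold change was 0.02 in both fractions, with 96 of 182 above 0 in each. With the sample number as a block, 1 rose and 3 fell in EPCAM+ cells (1.97% of all genes called), and 3 rose and 3 fell in EPCAM- cells (2.51%).

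For the proteasome, Psmc3 stood at log2 0.94 and 1.10 while its fellow base ATPases had 0.11 and 0.68 (Psmc1), 0.04 and 0.07 (Psmc2), -0.14 and -0.05 (Psmc4), -0.04 and 0.02 (Psmc5), and 0.16 and 0.26 (Psmc6). The 30 tested proteasome genes had medians of -0.03 and 0.07. With the block, Psmc1 and the deubiquitinase Psmd14, itself on chromosome 2 below the interval, rose in EPCAM- cells (adjusted p 0.0239 and 0.0372 in limma), and Psma2, a subunit of the core particle, fell in both fractions (adjusted p 0.0242 and 0.0272 in limma). For complex I, Ndufs3 stood at 0.97 and 1.21 and the 14 other tested genes had medians of -0.07 and -0.14. For the nuclear pore, Nup160 stood at 0.70 and 0.97 and its 9 partners had medians of -0.04 and -0.17, with 1 above 0 in each fraction. With the block Ahctf1, which brings pore proteins to chromatin, fell in EPCAM+ cells (adjusted p 0.0491 in limma).

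For pyruvate dehydrogenase, Pdhx stood at 0.45 and 0.72. Pdha1, the catalytic subunit, read 1836 and 1911 against 2485 and 3075 in EPCAM+ cells and 1902 and 2201 against 2824 and 3499 in EPCAM- cells (log2 -0.56 and -0.62). It did not pass without the block (adjusted p 0.153 and 0.0798 in limma) and fell with it (adjusted p 0.0301 and 0.0117 in limma). Dlat, the acetyltransferase of the complex, fell with the block in EPCAM- cells (log2 -0.76, adjusted p 0.0157 in limma). Of the other lists, the 27 genes of Mediator and FACT had medians of -0.05 and -0.08, the 14 genes of mRNA 3′ processing 0.01 and 0.03, the 14 of autophagy initiation 0.15 and 0.13, the 11 of Commander -0.09 and 0.08, and the 16 of peroxisomes 0.01 and 0.15. The 14 genes of DNA damage recognition had 0.00 and 0.07, the 12 of the circadian clock 0.23 and 0.17, and the 12 of heparan sulfate synthesis 0.06 and -0.03. With the block Commd8, of Commander, rose in EPCAM+ cells (log2 0.65, adjusted p 0.0424 in limma) and the DNA demethylase Alkbh2 rose in EPCAM- cells (log2 0.88, adjusted p 0.0439 in limma).

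**Figure D5:**
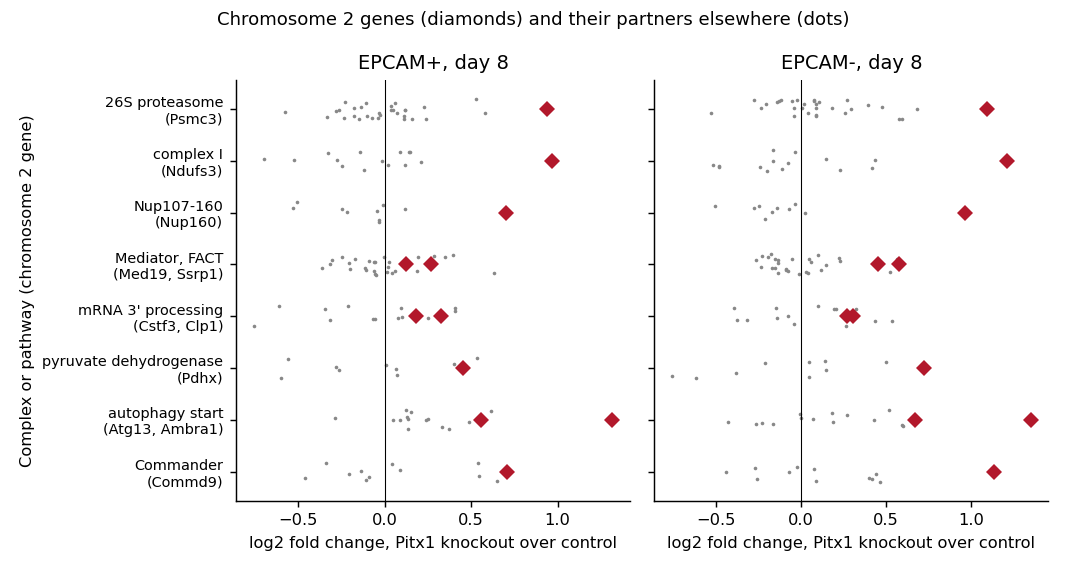
Diamonds are chromosome 2 genes and dots are partners of the same complex or pathway outside the interval, each as its log2 fold change in the Pitx1 knockout over control. The diamonds were chosen as raised in this comparison, so their place is a description. The medians of the partner lists shown lie between -0.17 and 0.15.

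Strand, length and overlap were not used to choose the genes. Level was, through the mean of 100 or more over all 22 libraries, the Pitx1 knockout libraries included. The fold changes set beside these traits here were used too. The genes were split evenly between strands, 23 on each, with medians of 0.72 and 0.97 for the plus strand and 0.53 and 0.72 for the minus strand. Across the genes the log2 fold change had a Pearson r of -0.22 in EPCAM+ and -0.26 in EPCAM- cells with log2 mean level, and of -0.20 and -0.29 with log2 gene length. The 4 head-to-head pairs with start sites within 1 kb had these log2 fold changes: Zfp408 and Arhgap1 (1.03 and 0.88 in EPCAM+ cells), Ndufs3 and Kbtbd4 (0.97 and 0.80), Pdhx and Apip (0.45 and 0.71), and Atg13 and Harbi1 (1.32 and 1.16). The strand used in counting is not given in the sources used here, so reads where genes overlap cannot be assigned with certainty. Of the 46 genes 15 overlapped another gene with a mean of 100 or more, among them Psmc3 with Slc39a13, Acp2 with Ddb2, Ndufs3 with Kbtbd4 and Cstf3 with Tcp11l1, and 13 overlapped one on the opposite strand. The 31 without such an overlap had medians of 0.70 and 0.74, against 0.71 and 0.84 for all 46. Only RNA was measured, and DNA from these lines was not analysed here.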

How the data were processed

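RNA-seq libraries of sorted tumour cells (2 per group, 11 groups) were analysed from the authors' deposited table of normalised counts, treated here as a score: per the submitters' processing notes FastQC, Trimmomatic, STAR, Picard and HTSeq were used with GRCm38/mm10, and no version, strand setting or scaling method is given in the sources used here. Deposited values fell on whole steps (99.6 to 99.9% of values above 0 within rounding up to the next unit), so reads in genes could be recovered (median 7804837). They were not scaled again. No per-sample column was left out (0).

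The 19569 genes that reached 10 in 2 or more libraries were fitted as log2(value + 1), 1 mean per group over all 22 libraries, with limma 3.58.1 in R 4.3.3 (data.table package, version 1.17.8; trend and robust prior, 11 residual degrees of freedom), with Benjamini-Hochberg adjustment for each comparison. A gene passed at an adjusted p below 0.05. Fold changes are on the log2(value + 1) scale, which understates low genes, and ratios are of deposited group means. Positions came from GENCODE M21, which held 49326 of the 49671 gene identifiers. Python 3.11.15 (numpy 2.4.6, pandas 2.3.3, scipy 1.17.1, matplotlib 3.10.9) prepared values and figures.

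The sample number equals a batch tag in the labels and was taken as pairing samples. Deviations of same-numbered samples correlated across genes over 0.1 in 44 of 55 pairs of groups (median 0.341, range -0.279 to 0.820). A fit with that number as a block was therefore the alternative (10 residual degrees of freedom). On simulated data of the Pitx1 EPCAM+ comparison (19117 genes, with an assumed dispersion of 0.01 that was not fitted to the libraries), 93% of genes changed by log2 1 and 100% of those changed by 1.5 were found. A wider spread in the real libraries would lower these shares, so they are not read as the power of the tests above. False calls were 20 of 213 (9.39%) over all genes, above the nominal rate, and 7 of 194 (3.61%) among genes with a mean of 100 or more, the set the check was judged on after the first rate was seen.

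The 48 genes, the partner and marker lists, the motif and the naming rule (all members; Pitx1 and Creb3l1; the 3 highest and lowest other genes of the interval; 5 flanking genes on each side; called partners; motif promoters and the closest opposed pair) were chosen with earlier results of these data known. Trim44, the partners named for the block fit or as fellow subunits, and the boundaries of stretches were chosen after their values were seen. One allele that all lines share is not reported here. Alternatives were a pseudocount of 10, no filter, a filter on a mean of 100, median-of-ratios scaling, voom on recovered reads, only the compared groups, the block, and each library left out.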

Additional observations from a re-analysis of the deposited data

Results flagged for a closer look

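In 3 of the 184 pairs of a gene and a knockout that were looked at, both knockout libraries lay above both controls in 1 fraction and below both in the other, which held for 1.11% of such pairs over all genes with a mean of 100 or more. Med19, the Mediator subunit, had a log2 fold change of -0.18 in EPCAM+ and 0.11 in EPCAM- Klf5 knockout cells. Pex16, the peroxisome membrane factor, had 0.35 and -0.27 in the Klf5 knockout, and 0.57 and -0.18 in the Nfatc1 knockout. The difference between fractions was not tested for these genes, and both Pex16 comparisons share the same control libraries.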

How the results depend on the processing

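The 17 results were each recomputed under 11 to 15 alternatives, which gave 191 values. The median log2 fold changes of the 46 genes in the Pitx1 knockout kept their direction, at 0.64 to 0.81 in EPCAM+ and 0.72 to 0.92 in EPCAM- cells with 1 library left out, and the counts of these genes passing in the other knockouts, between fractions and at day 8, which were 0, were 0 to 0 with 1 library left out. With the sample number as a block, in the pairing by batch, 4 counts moved from 0: 1 gene in Creb3l1 knockout EPCAM- cells (Ptprj), 1 gene between fractions of the Nfatc1 knockout (Cry2), and 4 and 6 partner genes in EPCAM+ and EPCAM- Pitx1 knockout cells. The block has the same fold changes and changed no other of these counts. No other alternative changed a count. All 46 genes stayed above 0 in the Pitx1 knockout under every alternative run, except without Pitx1 EPCAM+ replicate 2, where 44 did. The cause was not tested. Each group had 2 libraries, with 6054929 to 9882696 reads in genes, and changes below log2 1 were not simulated.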
